A study of Mus musculus with 2 samples.

Results

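The constitutive proteasome subunits are the genes whose array name begins Psma, Psmb, Psmc or Psmd followed by a number, without the immunoproteasome genes Psmb8, Psmb9 and Psmb10. By that rule 36 of the 27597 genes on the array were members: 15 of the core particle (Psma1 to Psma8 and Psmb1 to Psmb7), 20 of the regulatory particle (Psmc1 to Psmc6 and Psmd1 to Psmd14), and Psmc3ip, a recombination factor that shares only the name. Bcl11b-deficient RNA came from peripheral CD8+ T cells of Bcl11bF/F/dLck-iCre mice, in which an iCre driven by the distal Lck promoter, active in T cells, deletes floxed Bcl11b. Wild-type RNA came from CD8+ T cells of wild-type mice. All mice of both genotypes had been infected with Listeria monocytogenes-OVA and were killed at day 6, and the cells were enriched by negative selection to a stated purity of over 90%. Each of 2 arrays, called replicates 1 and 2 by the labels, carried deficient RNA in Cy5 and wild-type RNA in Cy3, so dye and genotype cannot be told apart. The age, sex and number of mice per RNA, and whether any were pooled, are not given in the sources used here.

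The proteasome degrades proteins that carry ubiquitin chains. Its barrel-shaped core particle has outer rings of alpha subunits, which gate the entrance, and inner rings of beta subunits, of which Psmb5, Psmb6 and Psmb7 carry the proteolytic sites. The regulatory particle sits on the core: its base of ATPases unfolds the substrate and its lid removes the ubiquitin. Dividing lymphocytes need much proteasome activity, and interferon replaces the constitutive catalytic subunits with the immunoproteasome ones, which favour peptides for MHC class I.

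None of the 32 measured members passed the test for a difference between Bcl11b-deficient and wild-type RNA. By limma with Benjamini-Hochberg adjustment over 9941 genes, 0 of 32 had an adjusted p under 0.05, against 9.61% of the genes tested (955 genes). By direction, 0 were called higher, against 3.65% of genes, and 0 lower, against 5.96%. The separate-channel limma fit also called 0 members, none of them even at an unadjusted p under 0.05, and it called 27 genes in all. In the ratio fit 1 member, Psmd8, was under 0.05 unadjusted. The measured members' median log2 ratio, deficient over wild type, was -0.32 on replicate 1 and 0.09 on replicate 2, beside -0.22 and -0.01 over all genes tested. Replicate 1 spread the members between -1.71 and 1.18 (SD 0.75 over 32 members). For 7 of these the deficient signal on that array was not well above background. Replicate 2 spread the members only between -0.29 and 0.59 (SD 0.23). Over all genes tested the SD was 0.96 on replicate 1 and 0.65 on replicate 2. Ratios were above 0 on both arrays for 11 members, below 0 on both for 10, and of opposite sign for 11. Over all 9941 genes tested these counts were 3233, 4127 and 2581. The level of a whole family depends on how an array is centred: 12 of 32 mean ratios lay above 0 after loess normalisation and 2 of 32 after median centring.

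**Figure D1:**
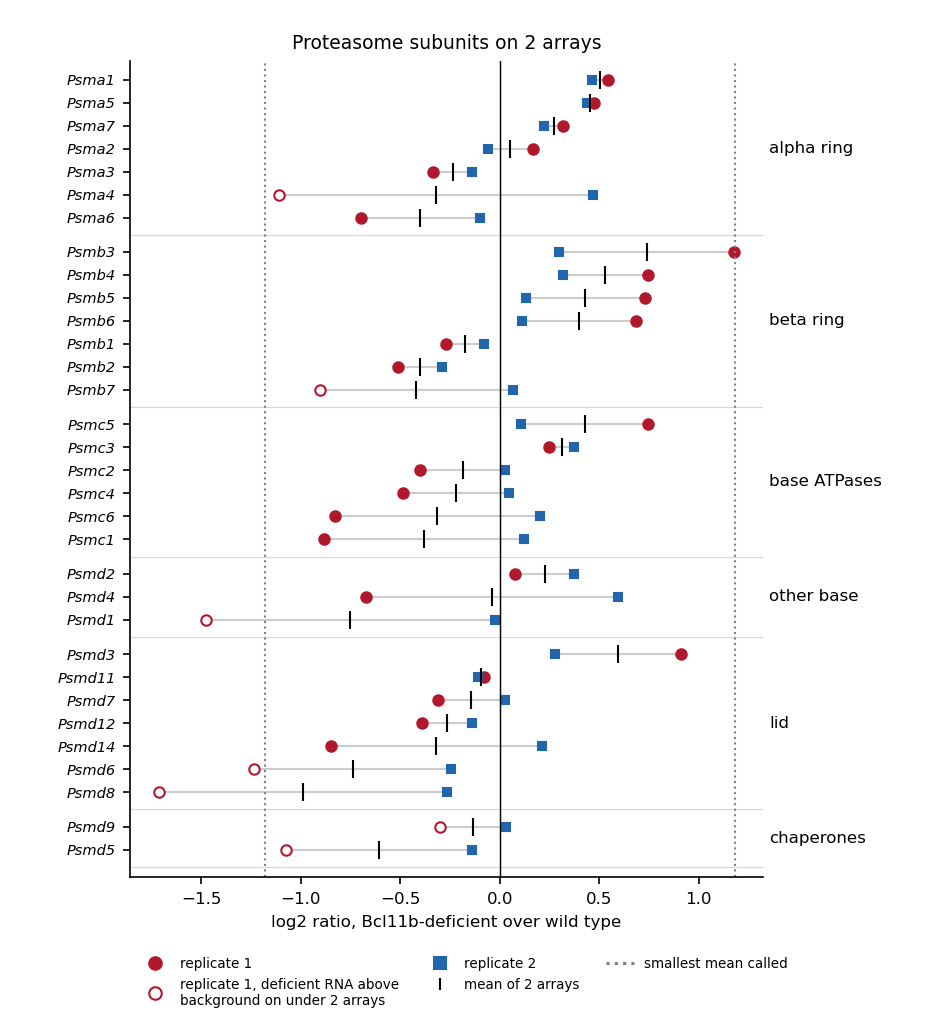
Log2 ratio of Bcl11b-deficient over wild-type RNA for the 32 measured members, grouped by subcomplex; circles are replicate 1, squares replicate 2, ticks the mean, and open circles mark genes whose deficient RNA was well above background on only 1 array. The dotted lines stand at 1.18, the smallest mean called in either direction, and no member's mean reaches them; replicate 1 is spread far wider than replicate 2.

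With 1 ratio per array the fit had 1 residual degree of freedom per gene, and limma pooled the spread over genes, so that every gene had a standard error of 0.42. A mean log2 ratio had to reach 1.18 in size to be called, and the 95% interval of each member ran 0.82 to either side of its mean. A p-value above the threshold therefore does not show that a subunit was equal in the 2 genotypes. Of the 32, wild-type RNA was well above background on both arrays for every gene, and deficient RNA for 25. For Psma4, Psmb7, Psmd1, Psmd5, Psmd6, Psmd8 and Psmd9 the deficient RNA was above background on replicate 2 alone. These entered through the wild-type RNA. Their replicate 1 ratios rest on a deficient signal not well above background, so the size of those ratios is uncertain. Psma8, a testis-restricted alpha subunit, Psmc3ip, Psmd10 and Psmd13 were not well above background in either RNA on both arrays and have no value here. The intensities that follow are loess-normalised spot brightness on a linear scale, not scaled between arrays, and each compares the RNAs within 1 array.

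In the alpha ring the measured subunits lay on both sides of 0, and none was called among 7. Psma1 had intensities of 3227 and 5263 in deficient RNA on replicates 1 and 2, against 2216 and 3818 in wild-type RNA. Its log2 ratios of 0.54 and 0.46 averaged 0.50 ± 0.06 (SD, n = 2; adjusted p = 0.503 by limma), the highest mean of the ring. Psma5 was similar, with 9778 and 16750 in deficient RNA against 7049 and 12390 in wild-type RNA, a mean log2 ratio of 0.45 ± 0.03 (SD, n = 2). For both subunits the deficient RNA was, after loess, the brighter on each array, by nearly the same factor. After median centring in place of loess the mean was -0.31 for Psma1 and -0.50 for Psma5. Psma7 followed with log2 ratios of 0.32 and 0.22, and Psma2 stood at 0.17 and -0.06.

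Psma3 and Psma6 had ratios below 0 on both arrays, at -0.34 and -0.14 for Psma3 and -0.70 and -0.10 for Psma6. Psma4 had deficient RNA above background on replicate 2 alone. Its intensities were 524 and 2060 in deficient RNA, against 1132 and 1489 in wild-type RNA. The log2 ratios were -1.11, of uncertain size, and 0.47. A second Psma4 probe, also not above background in deficient RNA on replicate 1, gave a mean within 0.03 of the first.

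In the beta ring 4 of 7 measured subunits had ratios above 0 on both arrays, beside 3233 of 9941 genes tested, and again none was called. Psmb3, a structural beta subunit, had the highest mean of the measured members. Its intensities were 30930 and 28910 in deficient RNA, against 13690 and 23510 in wild-type RNA. The deficient RNA was brighter on both arrays, by log2 ratios of 1.18 and 0.30 (mean 0.74 ± 0.62, SD, n = 2; limma adjusted p = 0.291). The array's second Psmb3 probe did not share this difference: it gave -0.34 and 0.08, a mean of -0.13. After median centring in place of loess the brighter probe's mean was -0.25. The 2 probes lie at chr11:97529524-97529583 and chr11:97527200-97527259 (build mm8, as the array files give it), both assigned to the same transcript. Which exon each probe matches was not assigned here.

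Psmb4, also structural, had 8251 and 9927 in deficient RNA against 4928 and 7973 in wild-type RNA, with log2 ratios of 0.74 and 0.32. Psmb1 and Psmb2 were below 0 on both arrays, at -0.27 and -0.08 for Psmb1 and -0.51 and -0.29 for Psmb2. Of the catalytic subunits, Psmb5, which cuts after hydrophobic residues, had 4553 and 4829 in deficient RNA against 2750 and 4412 in wild-type RNA (log2 ratios 0.73 and 0.13). Psmb6, which cuts after acidic residues, had 12630 and 14320 in deficient RNA against 7859 and 13260 in wild-type RNA (0.69 and 0.11). Psmb7, which cuts after basic residues, had 445.4 and 1007 in deficient RNA against 833.9 and 962.3 in wild-type RNA (-0.90 and 0.07). On replicate 2 the catalytic subunits thus lay within 0.13 of 0, and on replicate 1 Psmb7 stood apart from the other two, with its deficient RNA not above background. The ring's median of mean log2 ratios was 0.40 after loess and -0.43 after median centring.

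Genes of proteasome subunits are known to respond together to the factor Nfe2l1 through antioxidant response elements, and several carry CCAAT boxes bound by NF-Y, so the 250 bases before the annotated start were read for both. RefSeq (GRCm38.p6) gave windows for 29 of 36 members, and Psma8, Psmb1, Psmb2, Psmb7, Psmc3, Psmd3 and Psmd7 had no entry in the table used. The element's core TGACNNNGC, or GCNNNGTCA on the other strand, stood in 5 of 29 members (17.2%) and in 11.5% of 27025 genes. These were Psmb5, Psmb6, Psmc6, Psmd9 and Psmd12. CCAAT, or ATTGG on the other strand, stood in 12 of 29 members (41.4%) and in 37.5% of genes. These 12 were 6 of 11 core members, 5 of 17 regulatory ones, and Psmc3ip, which is no subunit. The windows of Psmb3 and Psmd8, the measured members with the highest and the lowest mean ratio, and of the catalytic Psmb5 and Psmb6 are printed 5′ to 3′ in lower case with motif matches in capitals.
Psmb3 (chr11:97703184-97703433, + strand): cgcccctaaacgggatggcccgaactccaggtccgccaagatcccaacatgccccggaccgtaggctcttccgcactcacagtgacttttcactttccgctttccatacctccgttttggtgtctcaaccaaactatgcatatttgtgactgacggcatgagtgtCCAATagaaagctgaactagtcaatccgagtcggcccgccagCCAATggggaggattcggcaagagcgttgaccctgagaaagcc
Psmb5 (chr14:54617996-54618245, - strand): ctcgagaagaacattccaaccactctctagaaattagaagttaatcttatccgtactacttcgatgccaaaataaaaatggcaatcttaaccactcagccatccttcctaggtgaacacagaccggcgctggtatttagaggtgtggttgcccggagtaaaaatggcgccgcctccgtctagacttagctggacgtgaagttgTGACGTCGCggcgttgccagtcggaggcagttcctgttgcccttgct
Psmb6 (chr11:70525107-70525356, + strand): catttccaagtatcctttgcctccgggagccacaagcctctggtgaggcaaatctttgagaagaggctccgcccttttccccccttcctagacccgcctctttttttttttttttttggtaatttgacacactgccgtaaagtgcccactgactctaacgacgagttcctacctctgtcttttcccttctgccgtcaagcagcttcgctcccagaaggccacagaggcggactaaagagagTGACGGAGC
Psmd8 (chr7:29180674-29180923, - strand): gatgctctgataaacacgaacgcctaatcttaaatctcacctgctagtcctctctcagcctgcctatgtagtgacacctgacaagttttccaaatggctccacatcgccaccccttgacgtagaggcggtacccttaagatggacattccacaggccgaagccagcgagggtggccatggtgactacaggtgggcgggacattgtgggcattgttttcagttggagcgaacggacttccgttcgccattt
Psmb5 has the element 47 bases before its start and Psmb6 has it in the last 9 bases before its own. Psmb3 has CCAAT at 2 places, and Psmd8 has neither motif in this window. A match is a run of letters, not a bound site.

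In the base, the ATPases Psmc1 to Psmc6, which form the unfolding ring, were all measured, all above background in both RNAs on both arrays, and none was called. On replicate 2 all 6 ratios were above 0, between 0.03 and 0.37. There the median of all genes was -0.01, and 4924 of 9941 lay above 0. On replicate 1 only Psmc3 and Psmc5 were above 0, so the other four changed sign between the arrays. Psmc3 had 1195 and 2011 in deficient RNA against 1007 and 1552 in wild-type RNA, with log2 ratios of 0.25 and 0.37. Psmc5 had 1148 and 914.7 in deficient RNA against 686.1 and 848.6 in wild-type RNA, with log2 ratios of 0.74 and 0.11. Psmc1 and Psmc6 lay lowest on replicate 1, at -0.88 and -0.83, and reached 0.12 and 0.20 on replicate 2. Psmc2 and Psmc4 were between them, at -0.40 and -0.49 on replicate 1 and 0.03 and 0.05 on replicate 2.

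The other base subunits bind substrates and their carriers. Psmd2, a scaffold that docks ubiquitin shuttle proteins, had log2 ratios of 0.08 and 0.37. Psmd4, a ubiquitin receptor, had 1133 and 4777 in deficient RNA against 1808 and 3168 in wild-type RNA. Its ratios of -0.67 and 0.59 had opposite signs, and 0.59 was the highest of any measured member on replicate 2. Psmd1, the second scaffold, had 217.3 and 604.4 in deficient RNA against 605.4 and 614.6 in wild-type RNA, with log2 ratios of -1.48 and -0.02. Its low mean of -0.75 thus comes from replicate 1, where the deficient RNA was not above background.

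The lid held both the highest and the lowest mean of the regulatory particle. Psmd3, a structural lid subunit, had 7240 and 8770 in deficient RNA against 3850 and 7247 in wild-type RNA. Its log2 ratios of 0.91 and 0.28 averaged 0.59 ± 0.45 (SD, n = 2; limma adjusted p = 0.422). Psmd8, another structural subunit, had 513.9 and 1781 in deficient RNA against 1685 and 2144 in wild-type RNA. The deficient RNA was the dimmer on both arrays, with log2 ratios of -1.71 and -0.27 (mean -0.99 ± 1.02, SD, n = 2, limma adjusted p = 0.122, unadjusted 0.0179). On replicate 1 it was not above background, so the size of the first ratio is uncertain. Psmd6 likewise had a replicate 1 ratio of uncertain size. It had 576.8 and 1421 in deficient RNA against 1359 and 1681 in wild-type RNA (-1.24 and -0.24).

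Psmd14, the deubiquitinase of the lid, had 835.4 and 2394 in deficient RNA against 1506 and 2069 in wild-type RNA. Its ratios of -0.85 and 0.21 had opposite signs, and its second probe gave a mean 0.24 lower. Psmd7, the catalytically inactive partner of Psmd14, stood at -0.31 and 0.02 by its brighter probe. A dimmer Psmd7 probe gave -2.54 and 0.10, and on replicate 1 its deficient RNA was not above background. Psmd11 and Psmd12, structural lid subunits, were below 0 on both arrays, at -0.08 and -0.11 for Psmd11 and -0.39 and -0.14 for Psmd12. Of the base assembly chaperones that carry Psmd names, Psmd5 had ratios of -1.07 and -0.14 and Psmd9 of -0.30 and 0.03. Both were above background in deficient RNA on replicate 2 alone. Among the 8 members with 2 measured probes, the means of both probes had the same sign in 7, Psmb3 being the exception, but the ratios had the same sign on both arrays in only 4. In 5 of the 8 (Psma4, Psmc4, Psmc6, Psmd7 and Psmd14) the second probe's deficient RNA was not above background on replicate 1. Second probes without a value above gave means of -0.40 for Psmc4, 0.38 for Psmc5, -0.70 for Psmc6 and 0.14 for Psmd2. Those of Psmc4 and Psmc6 are among the 5 just named, so their replicate 1 ratios are of uncertain size.

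The difference between the arrays lay mostly in the Cy5 channel. That channel carried the deficient RNA on both arrays, so RNA and dye cannot be told apart here. Median negative control intensities on replicates 1 and 2 were 968.4 and 706.9 in Cy5, and 326.5 and 406.1 in Cy3. Before normalisation, the members' Cy5 signal of deficient RNA was higher on replicate 2 by log2 -0.23 to 1.86, with an SD of 0.48 over 32 members, while the Cy3 signal of wild-type RNA differed by -0.02 to 0.37 with an SD of 0.089. Over all 12632 probes kept, the signals of the arrays correlated at 0.87 for deficient RNA and 0.99 for wild-type RNA, a description of these arrays. Probes printed 10 times on each array put the spread between spots of 1 probe at a median SD of 0.07 to 0.10 for deficient RNA and 0.09 to 0.11 for wild-type RNA. The members' wild-type signals were nearly all the higher on replicate 2, and the spread of their differences around that shared offset was about as large as between spots of 1 probe. Over 103 such probes the means differed between the arrays, before normalisation, with an SD of 0.82 for deficient RNA and 0.22 for wild-type RNA. These are unnormalised signals of separate hybridisations, so their spread cannot show whether an RNA was the same on both arrays. The arrays were kept as 2 samples because the labels call them replicates. The labels do not say whether the wild-type RNA on each array came from separate mice. If it did not, the spread between samples is only that of the deficient samples and their Cy5 channel.

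**Figure D2:**
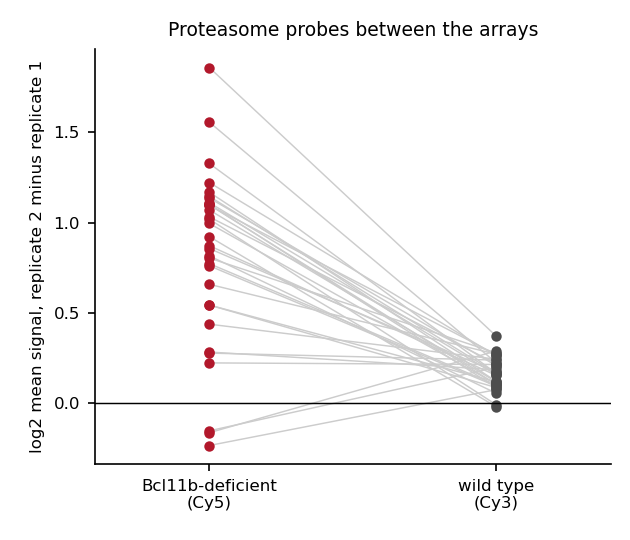
Log2 mean signal on replicate 2 minus that on replicate 1, before normalisation, for the 32 measured members, with Bcl11b-deficient RNA (Cy5) on the left and wild-type RNA (Cy3) on the right; a line joins the values of 1 gene. Deficient values run from -0.23 to 1.86 and wild-type values from -0.02 to 0.37.

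Core subunits had higher ratios than regulatory ones on replicate 1 and nearly the same ratios on replicate 2. On replicate 1 the median log2 ratio was 0.24 over 14 core members and -0.44 over 18 regulatory ones, a difference of 0.69. On replicate 2 it was 0.12 over core and 0.04 over regulatory members, a difference of 0.08. The mean difference of 0.37 was smaller than its SD between the arrays (0.43, n = 2), and no test was made of it. Relative to the median of all genes, the core stood at 0.46 and 0.13 and the regulatory particle at -0.23 and 0.05. Within the 25 members whose deficient RNA was above background on both arrays the difference was 0.79 and -0.003. The core median of mean ratios was 0.16 after loess and -0.52 after median centring, and the regulatory median -0.20 and -0.79. By subcomplex, the replicate 1 medians were 0.17 for the alpha ring, 0.69 for the beta ring, -0.44 for the ATPases, -0.67 for the other base subunits and -0.39 for the lid. On replicate 2 these lay between -0.11 and 0.37.

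Probe brightness moved with this difference. The median brightness, as mean log2 intensity of both RNAs and arrays, was 11.87 for core and 10.74 for regulatory probes. Across the 32 measured members the ratio correlated with brightness at 0.71 on replicate 1 and 0.38 on replicate 2, beside 0.18 and 0.10 over all genes. These points share both arrays and the intensities from which ratio and brightness are made, so the values are a description. The median replicate 1 ratio of all genes was -0.27 in the dimmest 50% of genes and 0.21 in the brightest 5%, and that brightest class held 5 core members and 0 regulatory ones. In the brightness interval that both particles share (log2 9.21 to 12.66), 8 core members and 16 regulatory ones remained. There the core minus regulatory difference was 0.02 on replicate 1 and -0.08 on replicate 2. Among members brighter than the members' median the difference was 0.93 and 0.02 (9 core and 7 regulatory), and among the dimmer ones 0.15 and -0.13 (5 core and 11 regulatory).

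**Figure D3:**
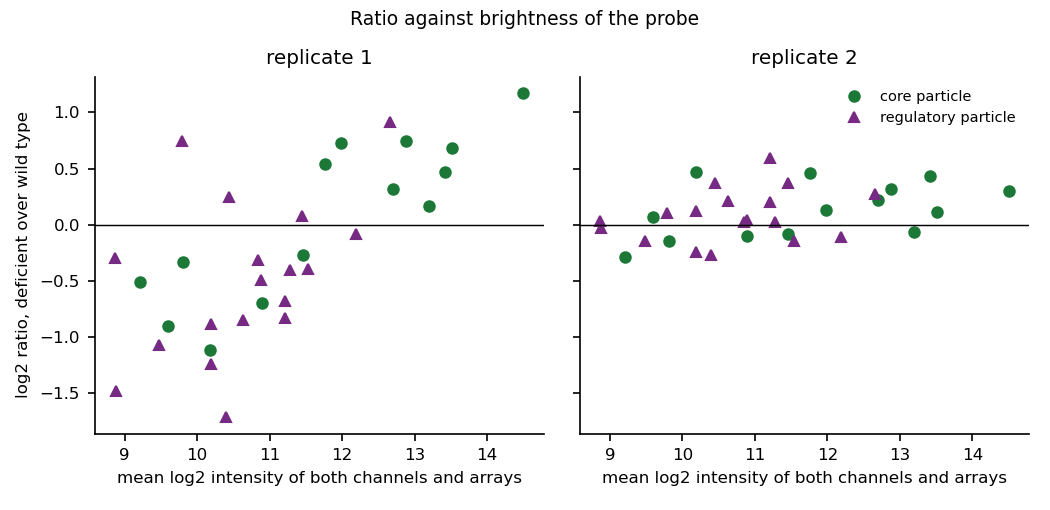
Log2 ratio of Bcl11b-deficient over wild-type RNA against mean log2 intensity of the probe for 14 core members (circles) and 18 regulatory members (triangles), with replicate 1 on the left and replicate 2 on the right. On replicate 1 the 5 core members in the brightest 5% of all genes lie above 0 and most dim probes of both particles below it; on replicate 2 the members lie between -0.29 and 0.59 at every brightness.

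Outside the members, 1 gene of the proteasome and ubiquitin lists passed the test as higher in deficient RNA and 1 as lower, of 31 measured. That is 3.23% in each direction, below the 3.65% of all genes called higher and the 5.96% called lower, so the lists held no more calls than genes at large. The first was Pomp, the maturation factor needed to complete the core particle. Pomp had 10880 and 16120 in deficient RNA, against 3783 and 6721 in wild-type RNA. Deficient RNA was the brighter on both arrays, by log2 ratios of 1.52 and 1.26 (mean 1.39 ± 0.19, SD, n = 2; limma adjusted p = 0.0154). It kept the call in 8 of 13 alternative settings, with means from 0.46 to 1.51 and adjusted p-values from 0.000329 to 0.609. The other core assembly chaperones measured, Psmg1, Psmg2 and Psmg3, were not called. Pomp's window before the start holds neither motif.
Pomp (chr5:147860378-147860627, + strand): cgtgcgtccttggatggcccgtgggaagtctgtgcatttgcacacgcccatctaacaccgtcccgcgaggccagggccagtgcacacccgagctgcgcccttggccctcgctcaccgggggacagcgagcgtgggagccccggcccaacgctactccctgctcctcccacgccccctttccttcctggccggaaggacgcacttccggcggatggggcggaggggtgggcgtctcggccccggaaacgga

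The gene called lower was Uba1, the enzyme that activates ubiquitin, and its call rests on a replicate 1 signal not above background. Uba1 had 92.15 and 778.1 in deficient RNA, against 965.1 and 1036 in wild-type RNA, and log2 ratios of -3.39 and -0.41 (mean -1.90 ± 2.10, SD, n = 2; limma adjusted p = 0.000319). Its deficient RNA was above background on replicate 2 alone, where the ratio was -0.41. The size of the replicate 1 ratio is therefore uncertain, and the mean and adjusted p are no exact measure. Uba1 was not tested when both RNAs had to be above background. The fit kept the call in 7 of 12 alternative settings, with means from -2.33 to -0.93 and adjusted p-values from 7.39e-05 to 0.299. Of the other ubiquitin genes, shuttles and Vcp, 0 of 8 were called.

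The immunoproteasome subunits, which replace the constitutive catalytic ones, had 0 of 3 called. Psmb9, the counterpart of Psmb6, had 12030 and 29850 in deficient RNA against 9216 and 14080 in wild-type RNA, with log2 ratios of 0.38 and 1.08 (mean 0.73 ± 0.49, SD, n = 2; limma adjusted p = 0.293). Psmb8, the counterpart of Psmb5, had the lowest mean of the 3 (0.03), and Psmb10, the counterpart of Psmb7, stood at 0.71 and -0.21. Of 4 measured activators none was called: Psme1, an interferon-inducible activator subunit, had the highest mean (0.73) and Psme3, a nuclear activator, the lowest (-0.98). Among 4 other subunits and enzymes of the regulatory particle none was called, from Sem1, a small lid subunit, at 0.41 to Ube3c, a ubiquitin ligase, at -0.59. The deficient RNA of Psme3 and Ube3c was above background on 1 array. Among 7 measured regulators of proteasome gene transcription none was called. Nfe2l1 itself was highest, at 0.44 and 0.51, and Ngly1, the glycanase that helps to activate it, lowest at -1.55 and -0.53 (limma adjusted p = 0.0988), with deficient RNA above background on 1 array.

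**Figure D4:**
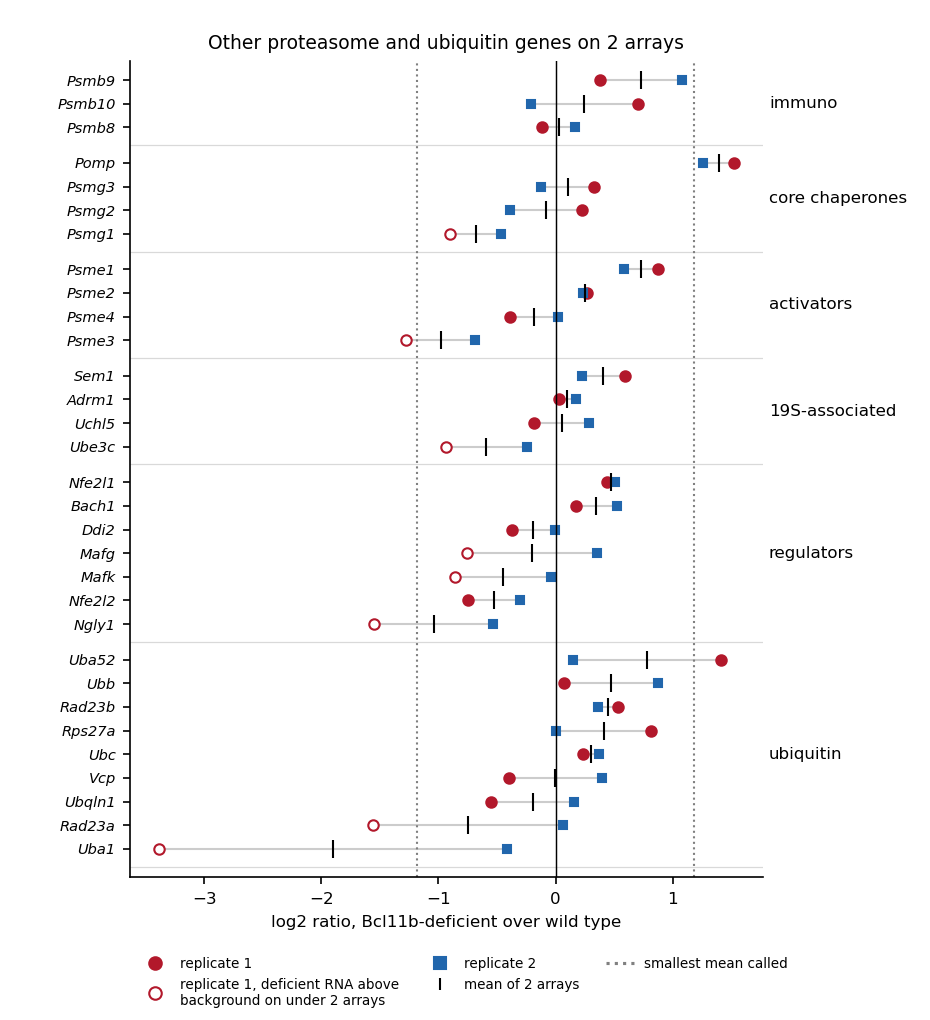
Log2 ratio of Bcl11b-deficient over wild-type RNA for the 31 measured genes of 6 lists around the proteasome; circles are replicate 1, squares replicate 2, ticks the mean, and open circles mark genes whose deficient RNA was well above background on under 2 arrays. Only the means of Pomp (1.39) and Uba1 (-1.90, deficient RNA not above background on replicate 1) pass the dotted lines at 1.18 in either direction.

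The composition of the RNA differed between the genotypes beside these values. T-cell markers, 11 of 11 measured and Cd8a and Cd8b1 among them in both RNAs, had 5 called lower and 0 higher. Ratios were below 0 on both arrays for 9, while Cd2 (0.24 and -0.42) and Zap70 (0.08 and -0.31) changed sign. The T-cell markers summed to 83395 and 90775 in deficient RNA against 145489 and 268453 in wild-type RNA. Of these sums Cd8b1 alone gave 44230 and 47470 in deficient RNA and 72140 and 133500 in wild-type RNA. Macrophage markers, 13 of 14 measured, were all 13 called higher and summed to 214655 and 294424 in deficient RNA against 26768 and 30419 in wild-type RNA. B-cell markers (5 of 9 measured, Cd79a and Pax5 not) had 3 called higher, neutrophil markers (5 of 7) 3, and erythroid markers (4 of 6) 4. Every measured macrophage, B-cell, neutrophil and erythroid marker had a ratio above 0 on both arrays. The part of these cells in the members' ratios was not tested, and in such bulk RNA fewer cells of a type and less RNA per cell cannot be told apart. Bcl11b itself had 1467 and 714.4 in deficient RNA against 2365 and 5527 in wild-type RNA, with log2 ratios of -0.69 and -2.95 (limma adjusted p = 0.000656; called in 8 of 13 alternative settings). The replicate with the smaller Bcl11b difference was replicate 1, on which the members were spread most. All genes tested were also spread more on that array (SD 0.96 against 0.65 on replicate 2). A link between the Bcl11b difference and the spread was not tested.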

How the data were processed

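Per the file headers, the deposited scanner files hold spot intensity values (mean signal and median local background in each colour) from Agilent Feature Extraction 9.5.3.1, the version given in the submitters' processing notes. The same headers record a fitted background, dye normalisation and the resulting log10 ratio, red over green. In the deposited value table each column matched the scanner's log10 ratio to within 0.00500 (replicate 1) or 0.00493 (replicate 2), which settles its scale and direction. Each column had a median of 0 over all spots. Over the genes tested its median log2 ratio was -0.36 on replicate 1 and -0.08 on replicate 2. Probe names came from a RefSeq table of GRCm38.p6 through accession or symbol, and otherwise from the array.

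Background was corrected with limma 3.58.1 in R 4.3.3 (normexp, offset 50, on mean minus local background), and log2 ratios were normalised by loess within arrays with control spots at weight 0. Outlier-flagged spots were left out (255 and 195 gene spots; 0 of 54 member spots), and none of the members' spots was saturated. A probe was kept where the same RNA was well above background on both arrays, and the brightest probe stood for its gene. That left 12632 probes and 9941 genes, and 40 of 54 member probes. Gene spots well above background made up 26.0% and 31.1% for deficient RNA and 32.4% and 28.9% for wild-type RNA. The number of arrays, 2, limits the precision. Ratios were tested against 0 with lmFit and eBayes, two-sided, with Benjamini-Hochberg adjustment over all genes at 0.05. The procedure was also run on simulated ratios that had the same spread for every gene and both arrays. The real arrays differ in spread, so that run does not check the calls made here.

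Members and lists were chosen with earlier results of these data known. Named with values were all measured members with each of their measured probes, and of each proteasome and ubiquitin list outside the members every called gene, otherwise the highest and the lowest. Psmb10 and Bcl11b were added to these, and marker lists were described by counts and sums, with values for Cd2, Zap70 and Cd8b1. Alternatives were other background corrections, normalisations, filters, probe rules and models, the deposited value table, and each array left out. The trend refitted over tested genes and the shared brightness interval were chosen after seeing the data. Array coordinates are on mm8. Both arrays lie on 1 slide.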

Additional observations from a re-analysis of the deposited data

How the results depend on the processing

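No measured member was called in any of 409 tests under the alternatives, and the lowest adjusted p was 0.0864 (Psmd8, with negative control spots as background; 0.0864 to 0.294 for that gene). The 409 tests were not separate checks. The Feature Extraction log ratio and the deposited value table hold nearly the same values, and keeping flagged spots left the members' ratios unchanged. With no filter 0 genes of any kind were called, and the separate-channel fit called 27. With a single array left out a ratio has no test. The core median (0.16) was 0.27 after centring on the genes' median, 0.27 with no filter on dim probes, 0.33 with both RNAs above background, -0.52 under median centring and -0.28 in the shared brightness interval. The regulatory median (-0.20) was -0.79 under median centring, which put the median of all genes at -0.75 and -0.07 on the arrays. The core minus regulatory difference (0.37) was -0.076 in the shared brightness interval. Leaving out 1 array gave a core median of 0.12 to 0.24, a regulatory median of -0.44 to 0.04 and a difference of 0.08 to 0.69, the lower difference being that without replicate 1. The cause of these shifts was not tested.

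Pomp was not called, so that 0 list genes were higher, in 5 settings. In 4 of them its mean log2 ratio stayed near 1.39 and the adjusted p by limma was above the threshold: 1.38 with the Feature Extraction log ratio or the deposited value table (0.179 in each), 1.39 with no filter (0.259) or separate channels (0.0967). Only median centring lowered the mean, to 0.46 (0.609). Uba1 was not called, so that 0 were lower, with means of -2.33 under the Feature Extraction log ratio or deposited value table, -1.90 with no filter or separate channels, and -0.93 with no background correction. It was not tested with both RNAs above background, where 0 were lower as well. Genes called higher and lower numbered 363 and 592, but 289 and 184 with no background correction, 50 and 65 with the Feature Extraction ratio or value table, 69 and 350 with median centring, 536 and 561 centred on the genes' median, 560 and 459 with the refitted trend, 560 and 220 with both RNAs above background, and 0 and 0 with no filter. Each ratio pairs both RNAs of 1 array, so the fit is paired by array, not by mouse. In the separate-channel fit the correlation between both RNAs within a spot was -0.12.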
